A study of Mus musculus with 2 samples.

Results

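The common gamma chain family is described here through 10 genes out of the 32285 measured: the cytokine genes Il2, Il7, Il15 and Il21, and the receptor genes Il2ra, Il2rb, Il2rg, Il7r, Il15ra and Il4ra. They were taken by symbol from both count matrices, and all 10 were found. The cells came from pancreatic tumours of mice, 21 days after KPC mouse pancreatic cancer cells had been placed in the pancreas. In the control group, littermates of genotype Porcn fl/fl carried the floxed Porcn gene without Cre. In the knockout group, Csf1r-Cre;Porcn fl/fl mice carried the same floxed gene together with Cre under the Csf1r promoter, which is active in macrophages and other myeloid cells. Porcn encodes the enzyme that readies Wnt proteins for secretion, so the comparison concerns tumours whose myeloid cells are meant to lack Wnt secretion. Each group had 1 library, pooled from the tumours of 5 mice and counted as unique molecular identifiers (UMIs, 1 per captured transcript) by a 10x Genomics 3′ assay. The spread between mice is therefore unknown, no test between genotypes was possible, and every difference below lies between 2 libraries.

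Common gamma chain cytokines all signal through a receptor that contains the chain encoded by Il2rg. The partner chains decide which cytokine binds: Il7r for interleukin-7, Il2rb with Il2ra or Il15ra for interleukin-2 and interleukin-15, and Il4ra for interleukin-4. The Janus kinases Jak1 and Jak3 and the Stat factors carry the signal, which maintains T cells and NK cells, while activated CD4 T cells are the textbook source of Il2 and Il21 and myeloid and stromal cells are those of Il15 and Il7. Interleukin-15 is usually handed to lymphocytes on the Il15ra chain of the cell that made it.

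After filtering, 11516 control and 10467 knockout cells were kept, with a median of 12167.5 and 10109 UMIs. Of the barcodes, 46 occurred in both libraries, 38 of them among kept cells. Clusters were named from marker genes that hold none of the 10 members, and the ending "-like" marks such a class. T-like cells numbered 191 in control and 1640 in knockout, which is 1.66% and 15.7% of kept cells, and their 11 T cell markers were all seen in both libraries. NK-like cells numbered 36 and 225, B-like cells 8 and 448, and epithelial/tumour-like cells 9551 and 6121. Porcn itself had 8 UMIs in 509 control and 4 in 550 knockout monocyte/macrophage-like cells, 3.27 CPM (1.41–6.45) against 1.42 CPM (0.388–3.64), so the matrices do not settle the deletion, and 3′ reads can still count a recombined allele. In epithelial/tumour-like cells Porcn stood at 7.43 and 4.99 CPM, a knockout over control ratio of 0.671 (0.603–0.745). Fibroblast-like cells held 8.46 and 15.2 CPM, a ratio of 1.80 (1.25–2.65), and neutrophil-like cells had 1 and 0 UMIs. The cause of these differences was not tested. CPM is the number of UMIs of a gene per 1000000 UMIs of the cells named, and brackets hold exact 95% intervals that cover counting error only. Levels are compared between cell groups for 1 gene at a time, never between genes.

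Il15 (chromosome 8, 82331632 to 82403222, minus strand, with all gene positions on GRCm38) was the ligand with the most UMIs. Epithelial/tumour-like cells held 2507 of its 2906 control and 2086 of its 2841 knockout UMIs, beside 90.1% and 79.9% of all UMIs. Per UMI, Il15 stood out in neutrophil-like cells. Their level was 234 CPM (203–269) in control and 500 CPM (438–569) in knockout, from 198 UMIs in 294 cells and 231 UMIs in 185 cells, a ratio of 2.13 (1.76–2.59). Migratory DC-like cells, dendritic cells that leave for lymph nodes, came next with 189 CPM (100–323) and 213 CPM (171–262). With both libraries summed, neutrophil-like cells at 328 CPM and migratory DC-like cells at 210 CPM had intervals apart from each other and from the other named classes. T-like cells were near the bottom, at 3.004 CPM (0.364–10.9) and 3.07 CPM (1.90–4.69). The plot of levels by class shows these positions for all members.

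**Figure D1:**
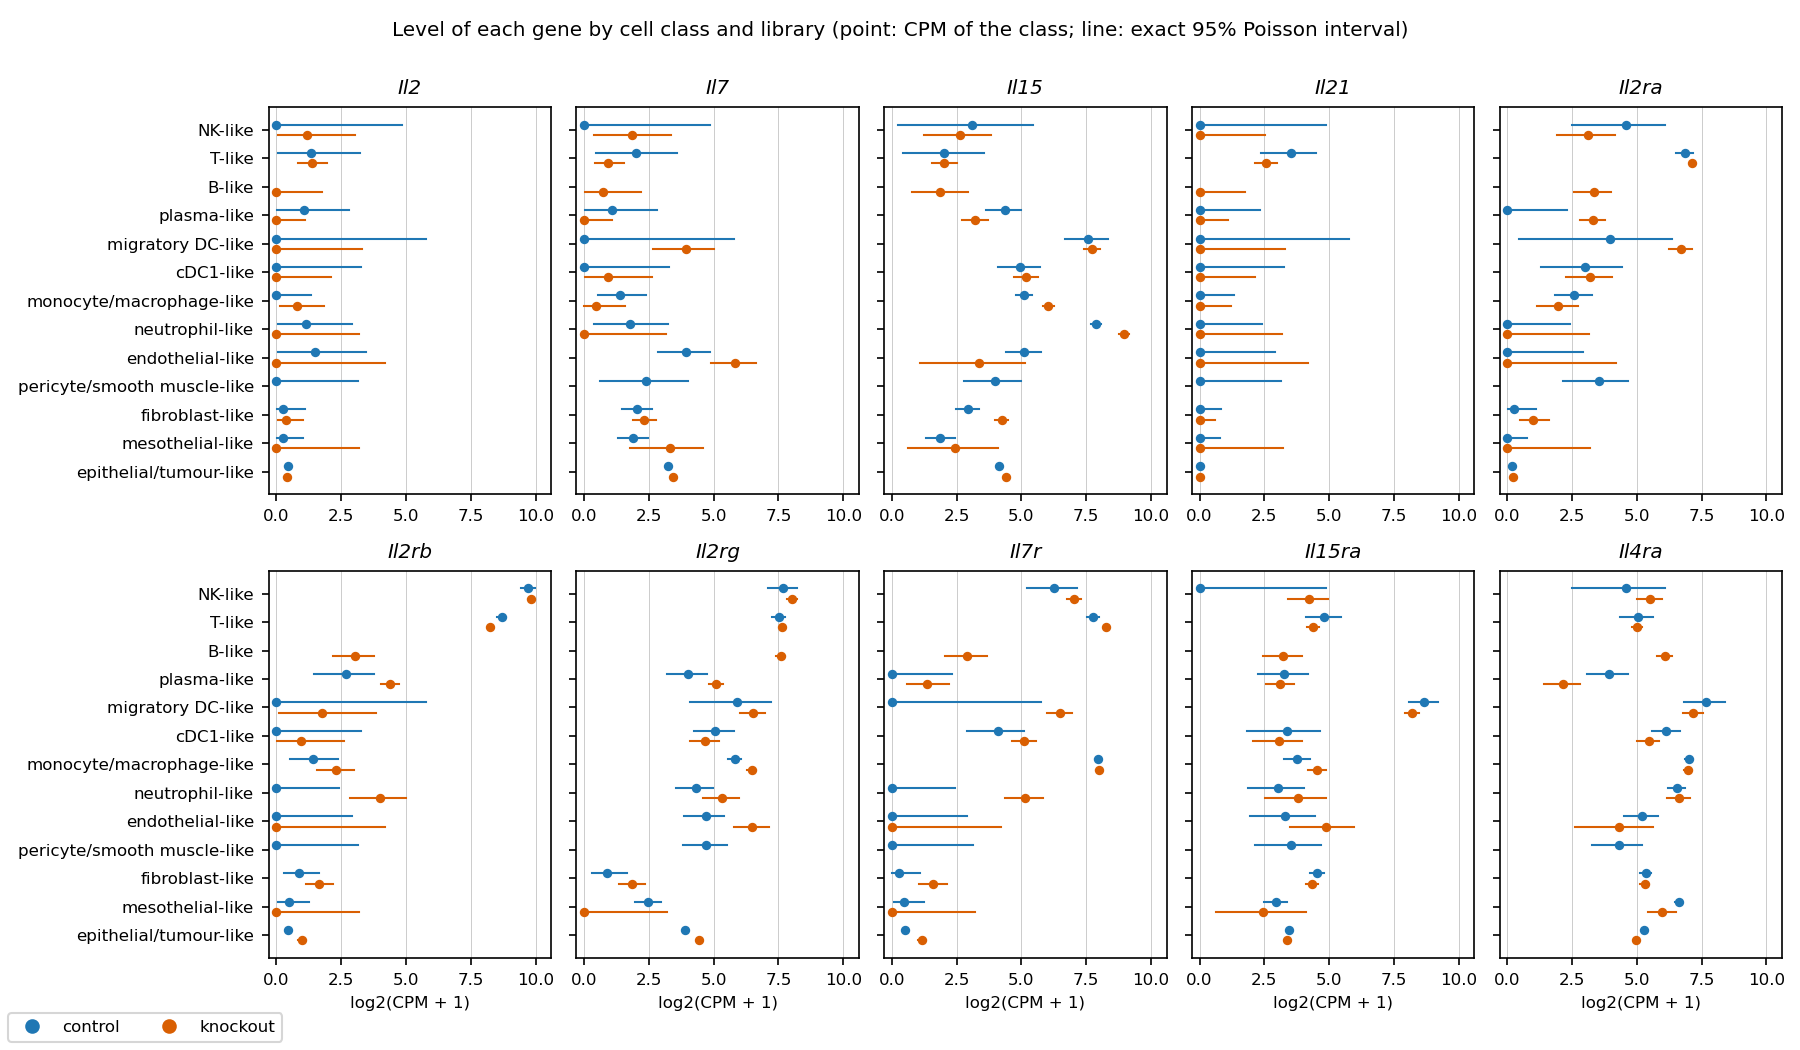
Level of each of the 10 genes by cell class (vertical) as log2(CPM + 1) (horizontal), with control in blue and knockout in orange; points are classes with at least 15 cells in that library, and lines are exact 95% Poisson intervals. Il15 is highest in neutrophil-like and migratory DC-like cells, Il15ra in migratory DC-like cells, Il2rb in NK-like cells, and Il21 is seen in T-like cells alone.

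The direction was not the same in all classes. The monocyte/macrophage-like class, the fibroblasts and the tumour-like cells were higher in the knockout library, while plasma-like cells were lower, at 19.5 CPM (11.5–30.8) and 8.30 CPM (5.47–12.1), a ratio of 0.426 (0.226–0.821). Epithelial/tumour markers in plasma-like cells summed to 1468 CPM in control and 398 CPM in knockout, and their part in the Il15 values was not tested. In endothelial-like cells the Il15 values were 33.6 CPM (20.3–52.5; 19 UMIs) and 9.38 CPM (1.14–33.9; 2 UMIs), and the ratio of 0.279 (0.0315–1.16) did not leave 1. Epithelial/tumour markers in these cells summed to 2782 CPM in control and 886 CPM in knockout, and their part in the values was not tested. Monocyte/macrophage-like cells went from 33.5 CPM (26.7–41.6) to 64.4 CPM (55.3–74.5), a ratio of 1.92 (1.47–2.52). Fibroblast-like cells went from 6.60 CPM (4.51–9.32) to 17.8 CPM (14.8–21.2), a ratio of 2.70 (1.82–4.11). Epithelial/tumour-like cells differed less, at 16.5 CPM (15.9–17.2) and 20.2 CPM (19.3–21.1), a ratio of 1.22 (1.15–1.30), and 8 of their 10 clusters with at least 50 cells per library were higher. T cell transcripts were also higher in knockout in neutrophil-like, monocyte/macrophage-like and fibroblast-like cells. The summed T markers went from 27.2 to 199 CPM in neutrophil-like, from 16.4 to 52.3 CPM in monocyte/macrophage-like and from 1.65 to 37.4 CPM in fibroblast-like cells. In control, 2 of the 11 T markers were seen in neutrophil-like, 10 in monocyte/macrophage-like and 6 in fibroblast-like cells, against 10, 11 and 11 in knockout. T-like cells of the knockout library held Il15 at 3.07 CPM. The part of T cell or other leukocyte transcripts in the Il15 values of these classes was not tested.

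Within the neutrophil-like class Il15 followed the kind of neutrophil. The cluster led by Cxcl2, Acod1 and Il1b (133 and 141 cells) held 427 CPM (347–518) in control and 636 CPM (548–735) in knockout, a ratio of 1.49 (1.16–1.92). In the cluster led by S100a9, Retnlg and S100a8 (106 and 33 cells), the values were 453 CPM (361–563) and 651 CPM (469–880), a ratio of 1.44 (0.965–2.11). The third cluster, led by the granule gene Camp (55 and 11 cells), had 35.1 CPM (19.6–57.9) and 28.6 CPM (5.89–83.5), below the other two in both libraries. It supplied a larger part of the control cells, and with the clusters weighted as in control the class ratio of 2.13 became 1.42. After each cell was thinned to 1000 UMIs, 23.2% of control (18.4–28.6, n = 280 cells) and 37.7% of knockout neutrophil-like cells (30.7–45.2, n = 183) had an Il15 UMI. Before thinning these shares were 34.0% and 49.7%, at median depths of 1711.5 and 1874 UMIs. The thinned shares in T-like cells, whose medians were 2820 and 3342 UMIs, were 0.549% and 0.125%.

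Among monocyte/macrophage-like cells, different clusters led in each library, with 162 and 160 control cells in the Arg1, F10 and Msr1 cluster and the Mmp12, Arg1 and Chil3 cluster, and 191 knockout cells in the C1qa, C1qc and C1qb cluster. In the Arg1, F10 and Msr1 cluster Il15 stood at 27.9 CPM (12.8–53.0) in 162 control cells and 119 CPM (79.3–173) in 117 knockout cells, a ratio of 4.27 (1.96–10.3) from 9 and 28 UMIs. The C1qa cluster held 44.6 and 52.5 CPM, and its ratio of 1.18 (0.739–1.91) did not leave 1. In the Fcgr1, Ms4a6d and Arg1 cluster, with 35 and 148 cells, the control value of 130 CPM (75.7–208) lay beside a knockout value of 116 CPM (90.9–145). Weighted as in control, the class ratio for Il15 was 1.54.

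**Figure D2:**
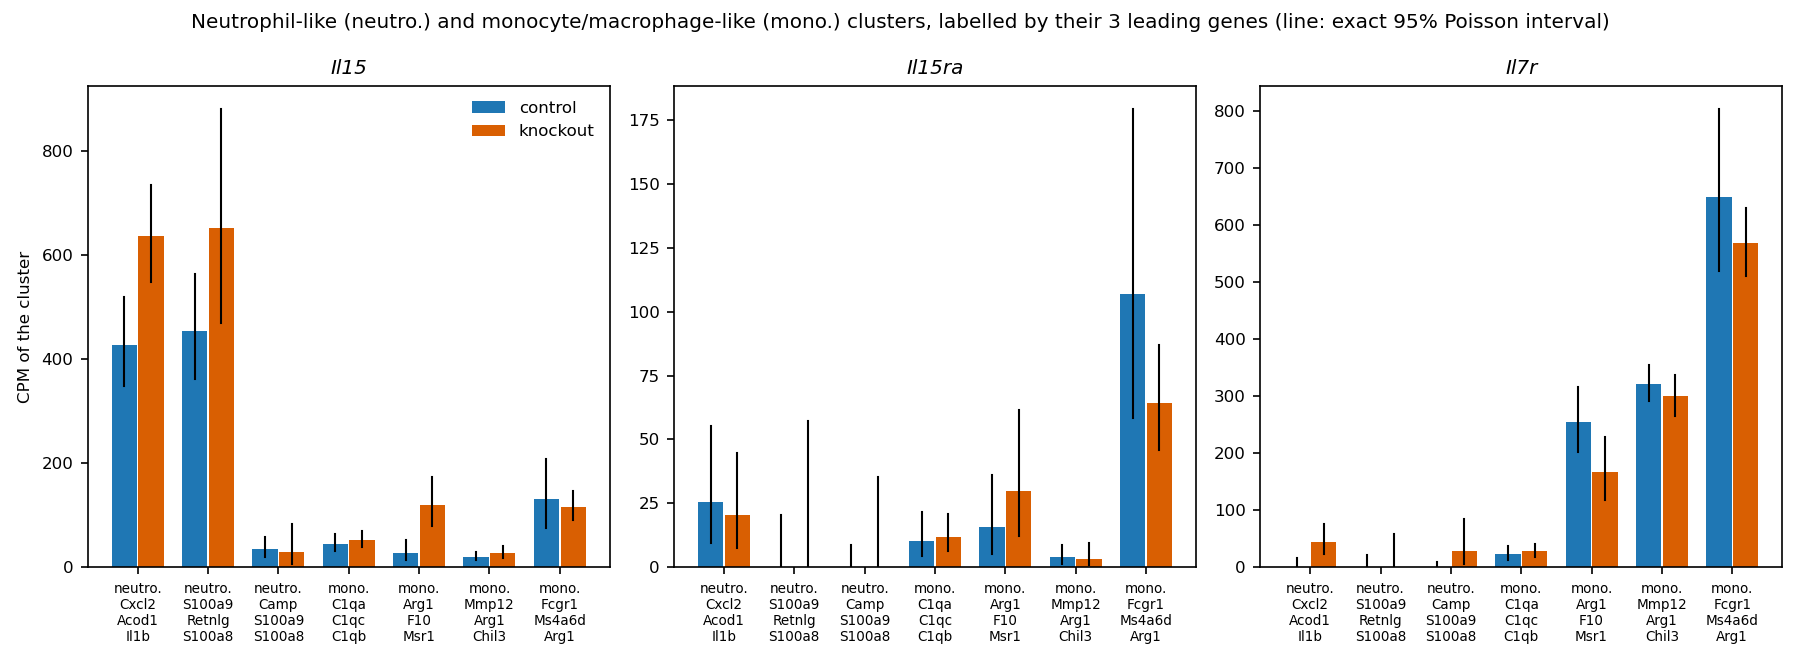
Levels of Il15, Il15ra and Il7r (vertical, CPM of the cluster, linear axes from 0) in the 3 neutrophil-like and 4 monocyte/macrophage-like clusters (horizontal, by leading genes); blue bars are control, orange bars knockout, lines exact 95% Poisson intervals. Il15 is highest in the Cxcl2 and S100a9 neutrophil clusters, while Il15ra and Il7r are highest in the Fcgr1 cluster.

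Il15ra (chromosome 2, 11705290 to 11734317, plus strand), the chain that presents interleukin-15, was found above all in migratory DC-like cells. They held 406 CPM (270–587; 28 UMIs in 17 cells) in control and 295 CPM (245–351; 123 UMIs in 71 cells) in knockout. No other named class exceeded 28.1 CPM in either library, and with both summed the classes from fibroblast-like (20.5 CPM) down to mesothelial-like (6.503 CPM) each overlapped the next in the order. Both transcripts, Il15 and Il15ra, were seen in 5 of 17 control (29.4%, 10.3 to 56.0) and 25 of 71 knockout migratory DC-like cells (35.2%, 24.2 to 47.5). The neutrophil-like class held Il15 with little Il15ra, at 7.10 and 13.0 CPM (6 UMIs each), and both transcripts were seen in 1 of 294 and 5 of 185 of its cells. In monocyte/macrophage-like cells Il15ra stood at 12.7 CPM (8.61–18.0) and 22.4 CPM (17.2–28.7), a ratio of 1.77 (1.13–2.81). The Fcgr1 cluster held 14 of the 31 control and 41 of the 63 knockout UMIs, and there the order was the opposite, 107 CPM (58.5–179) in control and 64.1 CPM (46.0–87.0) in knockout. The cluster had 35 control and 148 knockout cells, and with clusters weighted as in control the class ratio was 0.977.

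Il7 (chromosome 3, 7569994 to 7613760, minus strand), the cytokine on which naive T cells and their precursors depend, was found mostly in epithelial/tumour-like cells. That class held 96.4% of the control and 94.1% of the knockout library's Il7 UMIs, beside 90.1% and 79.9% of all UMIs. Its level was 8.39 CPM (7.94–8.87) in control and 9.75 CPM (9.16–10.4) in knockout, a ratio of 1.16 (1.07–1.26), and 9 of its 10 larger clusters were higher in knockout. Per UMI, endothelial-like cells were highest, with 14.2 CPM (6.12–27.9; 8 UMIs in 56 cells) and 56.3 CPM (29.1–98.3; 12 UMIs in 24 cells). The 12 knockout UMIs came from 3 cells. In control the endothelial-like interval held the epithelial/tumour-like level of 8.39 CPM. With both libraries summed, endothelial-like cells at 25.7 CPM (15.7–39.7) overlapped migratory DC-like cells at 12.3 CPM (4.53–26.8). Epithelial/tumour markers in endothelial-like cells summed to 2782 and 886 CPM, and their part in the Il7 values was not tested. Fibroblast-like cells, a known source in lymphoid tissue, held 3.09 CPM (1.73–5.10) and 3.98 CPM (2.65–5.76). Their ratio of 1.29 (0.665–2.59) did not leave 1 and became 0.977 when doublets were kept.

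Il21 and Il2 lie side by side on chromosome 3, Il2 at 37120523 to 37125959 and Il21 at 37222759 to 37232636, 96.8 kb apart and both on the minus strand. Il21, which follicular helper-type CD4 T cells secrete to help B cells, was seen in T-like cells only. There were 7 UMIs in 5 control and 34 UMIs in 25 knockout cells, or 10.51 CPM (4.23–21.7) and 4.97 CPM (3.44–6.94), a ratio of 0.473 (0.206–1.26). T-like cells with a Cd4 UMI but none of Cd8a, Cd8b1 or Foxp3 held 6 of the 7 control and 27 of the 34 knockout UMIs. In these 22 and 315 cells the level was 70.7 CPM (25.9–154) and 21.5 CPM (14.2–31.3), a ratio of 0.304 (0.123–0.901) whose interval left 1, unlike that of the class. By cluster, 7 and 27 UMIs fell in the T-like cluster led by Cd3g, Themis and Trbc2. In epithelial/tumour-like cells a count of 0 allowed up to 0.0197 CPM in control and 0.0290 CPM in knockout (3 counts of the class total).

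Il2, the growth factor of activated T cells, was scarce, with 61 UMIs in control and 48 in knockout. Epithelial/tumour-like cells held 55 of the control UMIs, in 55 cells, and 32 of the knockout UMIs, in 30 cells. T-like cells had 1 and 11 UMIs, each in a cell of its own. With both libraries summed their level was 1.60 CPM (0.826–2.79), above the 0.341 CPM (0.273–0.420) of epithelial/tumour-like cells, while the endothelial-like, NK-like and neutrophil-like classes, with a single UMI each, overlapped both. Thinned to 1000 UMIs, 5 of 1606 knockout T-like cells had an Il2 UMI (0.311%, 0.101 to 0.725), against 2 of 6086 epithelial/tumour-like cells (0.0329%, 0.00398 to 0.119). In control the thinned counts were 1 of 182 and 6 of 9502 cells. Before thinning the shares were 0.524% and 0.671% of T-like and 0.576% and 0.490% of epithelial/tumour-like cells, at median depths of 2820 and 3342 against 13297 and 14783 UMIs. So few UMIs gave no usable comparison of Il2 between the libraries, with a T-like ratio of 1.07 (0.156–46.1).

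The receptor chains differ in their build. Most carry the WSXWS motif of class I cytokine receptors (tryptophan, serine, any residue, tryptophan, serine) before the membrane, while Il2ra and Il15ra are sushi-domain chains and lack it. A search of the coding sequences of GENCODE M21 in frame found the motif in Il2rb, Il2rg, Il7r and Il4ra and in 71 of 21562 genes overall (0.329%). The coding windows of 45 bases around it, read 5′ to 3′ on the gene's strand with the motif's codons in capitals, are shown because they are what these 4 chains share and the 2 alpha chains do not. The Il2rb window lies at chr15:78485748-78485792 in exon 7 (minus strand) and that of Il2rg at chrX:101266200-101266244 in exon 5 (minus strand). The Il7r window lies at chr15:9511136-9511180 in exon 5 (minus strand) and that of Il4ra at chr7:125571539-125571583 in exon 7 (plus strand).
Il2rb: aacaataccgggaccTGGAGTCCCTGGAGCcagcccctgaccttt
Il2rg: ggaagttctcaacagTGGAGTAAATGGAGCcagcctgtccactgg
Il7r: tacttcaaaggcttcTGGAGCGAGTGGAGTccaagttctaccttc
Il4ra: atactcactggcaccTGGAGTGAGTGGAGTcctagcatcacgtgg

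Il7r (chromosome 15, 9505788 to 9530176, minus strand) was highest in T-like cells and next in monocyte/macrophage-like cells, at 297 CPM (285–310) and 250.0 CPM (237–264) with both libraries summed. Most of the summed T-like cells, 1640 of 1831, were from knockout, and in control the order was the other way, with overlapping intervals. T-like cells held 216 CPM (182–255; 144 UMIs) in control and 305 CPM (292–318; 2087 UMIs) in knockout, a ratio of 1.41 (1.19–1.68). Thinned to 1000 UMIs, 15.9% of control (10.9–22.1, n = 182) and 25.3% of knockout T-like cells (23.2–27.5, n = 1606) had an Il7r UMI, and 34.0% and 48.0% before thinning. In B-like knockout cells, which have a median of 2976 UMIs, the thinned share was 0.679%. The T-like clusters were unequally filled. The cluster led by Themis, Lef1 and Trbc2, with the highest Il7r levels of 522 CPM (375–709) and 675 CPM (636–717), had 30 control and 528 knockout cells. The cluster led by Cd8a, Cd8b1 and Cd3g, with 97 and 479 cells, held 163 and 162 CPM, a ratio of 0.995 (0.748–1.35). With clusters weighted as in control, the T-like ratio was 1.11. Split by transcripts seen, all 4 groups were higher in knockout. The interval left 1 for cells with Cd4 but neither Cd8 nor Foxp3 transcripts, at 130 CPM (64.7–232; 11 UMIs in 22 cells) and 401 CPM (367–438; 504 UMIs in 315 cells), a ratio of 3.097 (1.72–6.24), and the other ratios were 1.17 to 1.19.

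Monocyte/macrophage-like cells held Il7r at 248 CPM (228–268) in control and 252 CPM (234–271) in knockout, a ratio of 1.02 (0.911–1.13). In control they were the main holders of the transcript, with 72.3% of the library's Il7r UMIs against 17.2% in T-like cells. In knockout they held 22.5% and T-like cells 66.2%. The Fcgr1, Ms4a6d and Arg1 cluster had 649 CPM (519–803) and 568 CPM (511–629), and the Mmp12, Arg1 and Chil3 cluster 321 CPM (292–354) and 299.7 CPM (266–337). In the C1qa, C1qc and C1qb cluster the values were 22.3 CPM (12.5–36.7) and 27.7 CPM (18.4–40.1). These 3 clusters stood apart from each other within each library. The Arg1, F10 and Msr1 cluster was lower in knockout, with 254 CPM (202–316) and 166 CPM (118–227), a ratio of 0.653 (0.434–0.968). The sum of T markers was 66.2 CPM in the Fcgr1 and 24.5 CPM in the Mmp12 cluster over both libraries, against 4740 CPM in the T-like Lef1 cluster. The part of T cell transcripts in these Il7r values was not tested. Il7r was seen together with Il2rg, the chain it needs, in 38 of 509 control (7.47%, 5.34 to 10.1) and 61 of 550 knockout cells (11.1%, 8.59 to 14.0).

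**Figure D3:**
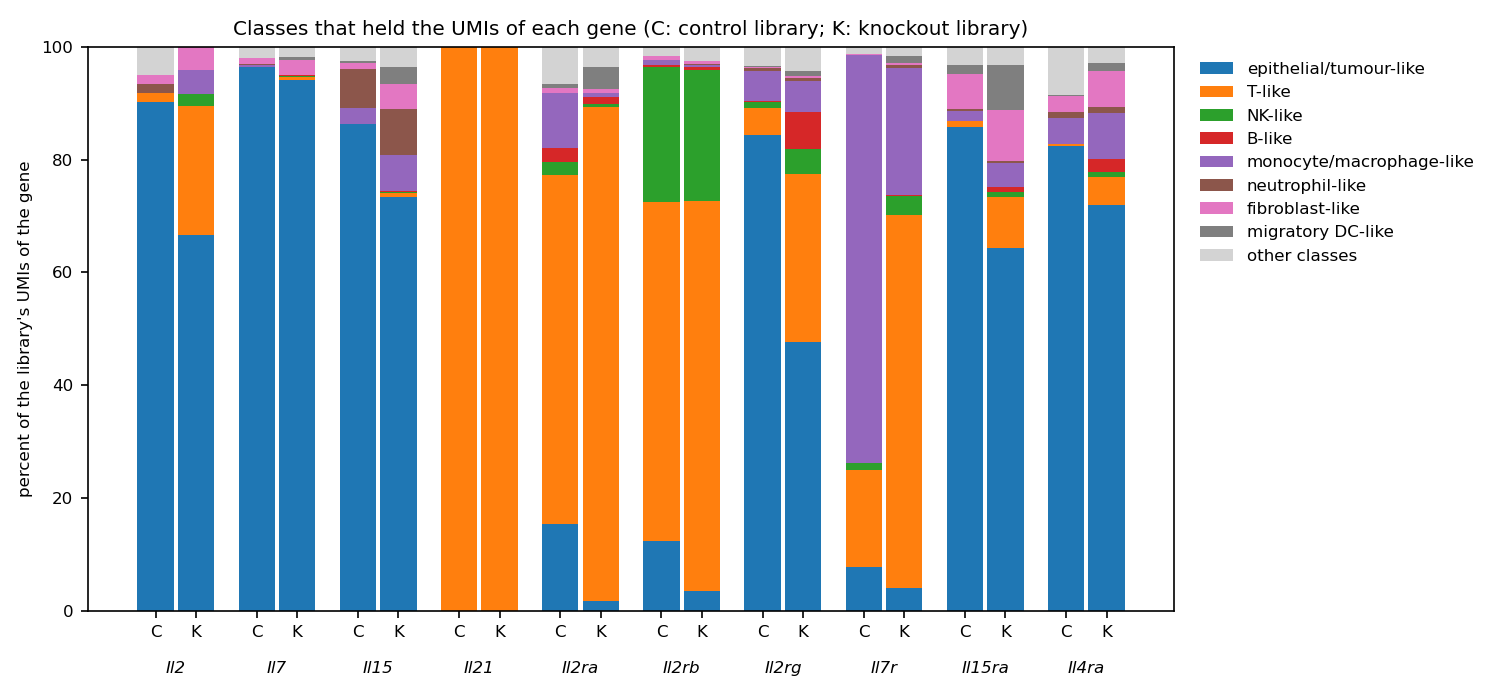
Share of each library's UMIs of a gene (vertical, percent, from 0 to 100) held by each cell class (colours), for control (C) and knockout (K). Most Il7r UMIs lie in monocyte/macrophage-like cells in control (72.3%) and in T-like cells in knockout (66.2%), while Il7 stays with epithelial/tumour-like cells in both.

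Il2rb (chromosome 15, 78479256 to 78495271, minus strand), the signalling chain shared by interleukin-2 and interleukin-15, was highest in NK-like cells. They held 844 CPM (694–1016; 111 UMIs in 36 cells) and 895 CPM (830–964; 701 UMIs in 225 cells), a ratio of 1.06 (0.868–1.31). T-like cells followed with 416 CPM (368–468; 277 UMIs) in control and 304 CPM (291–317; 2078 UMIs) in knockout, a ratio of 0.730 (0.644–0.830), lower in the knockout library. All 4 splits of the T-like cells by transcripts lay on the same side, from 0.723 to 0.776, and the interval left 1 for the Cd8-positive split, 472 CPM (411–540) against 363 CPM (343–384), a ratio of 0.769 (0.664–0.893). The Cd8a, Cd8b1 and Cd3g cluster, in contrast, held 503 CPM (431–583) and 475 CPM (446–506), a ratio of 0.945 (0.803–1.12). The Lef1 cluster, with 30 control and 528 knockout cells, held 255 and 144 CPM, 0.565 (0.357–0.942). In the Themis, Tnfrsf4 and Cd3d cluster, with only 11 control and 95 knockout cells, the values were 480.0 and 278 CPM, 0.579 (0.396–0.874). Weighted by cluster as in control, the T-like ratio was 0.859.

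Il2ra (chromosome 2, 11642807 to 11693193, plus strand), the high-affinity chain for interleukin-2 and a hallmark of regulatory T cells, ends 12.1 kb before Il15ra. T-like cells held 114 CPM (89.9–143; 76 UMIs) in control and 140 CPM (131–149; 958 UMIs) in knockout, a ratio of 1.23 (0.970–1.57), which became 0.898 with clusters weighted as in control. Cells with a Foxp3 UMI, 7 in control and 211 in knockout, stood at 648 CPM (396–1000.2) and 430 CPM (392–472). Those with Cd8 transcripts held 74.6 CPM (51.7–104) and 47.1 CPM (40.1–55.1), so the Foxp3-positive cells were above them in both libraries. All 3 chains of the high-affinity receptor, Il2ra, Il2rb and Il2rg, were seen together in 61 of 211 Foxp3-positive knockout cells (28.9%, 22.9 to 35.5), against 42 of 707 Cd8-positive ones (5.94%, 4.31 to 7.95). Outside the T-like cells, Il2ra was found in migratory DC-like cells, 103 CPM (74.5–139; 43 UMIs in 71 cells) in knockout and a single UMI in 17 control cells. T markers in that class summed to 0 CPM in control and 86.2 CPM in knockout, where 7 of 11 were seen and Cd3d, Cd4, Cd5 and Foxp3 were at 0. Their part in the value was not tested.

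**Figure D4:**
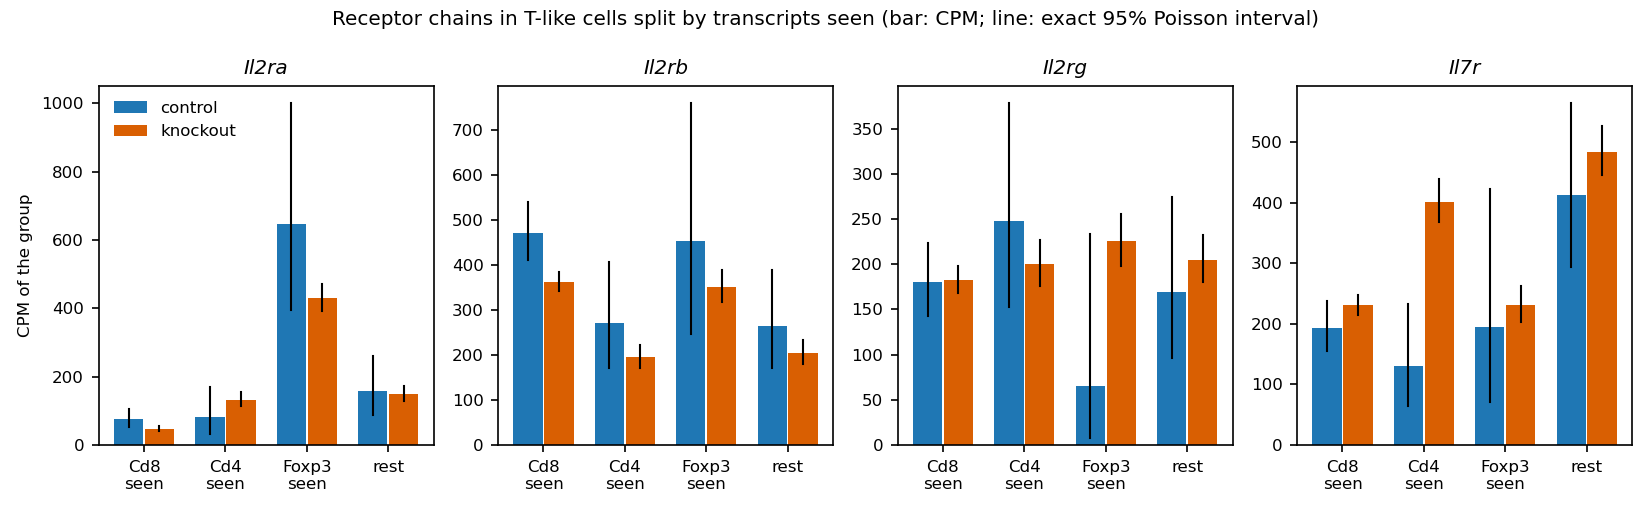
Levels of Il2ra, Il2rb, Il2rg and Il7r (vertical, CPM of the group, linear axes from 0) in T-like cells split by the transcripts seen (horizontal); blue bars are control, orange bars knockout, lines exact 95% Poisson intervals. Il2ra is highest in Foxp3-positive cells of both libraries (648 and 430 CPM), and Il2rb is lower in knockout in each split.

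Il2rg (chromosome X, 101264378 to 101268255, minus strand), the common chain itself, was a lymphocyte transcript that other cells held at a lower level. NK-like cells had 205 CPM (135–299) and 258 CPM (224–296), T-like cells 182 CPM (151–217) and 196 CPM (186–207), and B-like knockout cells 191 CPM (170–214). T-like and B-like cells did not differ beyond counting error. Monocyte/macrophage-like cells went from 55.2 CPM (46.3–65.3) to 87.9 CPM (77.2–99.5), a ratio of 1.59 (1.29–1.98), which became 1.31 with clusters weighted as in control. Epithelial/tumour-like cells went from 14.0 CPM (13.5–14.7) to 20.7 CPM (19.9–21.6), a ratio of 1.48 (1.39–1.57), and 8 of their 10 larger clusters were higher. The ratio varied among those clusters. It was highest in the cluster led by Lgals4, Gkn2 and Phgr1, with 6.53 and 26.9 CPM, and in the Grem1, Tnnt2 and Dynap cluster the values were 9.14 and 9.51 CPM. T markers summed over the class were also higher in knockout, at 3.87 and 14.8 CPM. In T-like cells of the knockout library 6319 CPM of T markers stood beside 196 CPM of Il2rg. The part of T cell or other leukocyte transcripts in the Il2rg values of the tumour-like class was not tested. Without the small cluster of epithelial/tumour-like cells that carried leukocyte markers, the Il2rg ratio was 1.49 (1.40–1.58).

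Il2rb and Il7r were scarce in epithelial/tumour-like cells and higher in knockout. The level of Il2rb went from 0.375 CPM (0.284–0.486) to 0.987 CPM (0.805–1.20), a ratio of 2.63 (1.89–3.71), and Il7r from 0.428 CPM (0.330–0.545) to 1.24 CPM (1.03–1.47), a ratio of 2.90 (2.13–3.97). The small cluster with leukocyte markers, of 79 control and 41 knockout cells, held 28 of the 57 control and 14 of the 102 knockout Il2rb UMIs. Without it the ratios were 4.45 (2.90–7.03) for Il2rb and 7.70 (4.48–14.1) for Il7r. All 11 T markers were seen in the class in both libraries, at the summed levels above. The part of these transcripts in the values was not tested.

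Il4ra (chromosome 7, 125552120 to 125579474, plus strand), the chain for interleukin-4 and interleukin-13, was seen in all 13 classes with at least 30 cells over both libraries. Migratory DC-like cells held 203 CPM (111–341) and 144 CPM (110–185), monocyte/macrophage-like cells 129 CPM (115–144) and 125 CPM (112–139), and neutrophil-like cells 92.3 CPM (73.0–115) and 97.4 CPM (71.1–130). Mesothelial-like cells, which line the abdominal organs, held 96.5 CPM (88.3–105) in 269 control and 62.5 CPM (41.5–90.3) in 49 knockout cells, a ratio of 0.647 (0.426–0.947). In epithelial/tumour-like cells, which held 82.4% and 72.0% of its UMIs beside 90.1% and 79.9% of all UMIs, Il4ra was lower in knockout, at 37.5 CPM (36.5–38.5) and 30.0 CPM (29.0–31.1), a ratio of 0.801 (0.766–0.837). Of 10 larger clusters, 2 were higher in knockout, the Lgals4, Gkn2 and Phgr1 cluster (21.4 and 22.9 CPM) and the Grem1, Csmd1 and Hmga2 cluster (63.3 and 95.2 CPM). T-like cells were at 31.5 and 31.1 CPM, a ratio of 0.987 (0.629–1.63).

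Counted together over the 5 classes of 100 or more cells per library, 31 of 50 pairs of a member and a class had at least 20 UMIs, and 7 differed by at least 2-fold. Of these, 6 were higher in knockout, namely Il2rb and Il7r in epithelial/tumour-like cells, where 4.49% of all genes were at least 2-fold higher, Il15 and Il2rg in fibroblast-like cells (4.57% of all genes) and Il15 and Il2rg in neutrophil-like cells (7.34%). The remaining pair, Il21 in T-like cells, was lower, as were 5.73% of all genes there, while 4.41% were higher. No member passed 2-fold in monocyte/macrophage-like cells, where 2.76% of all genes were higher and 3.56% lower, nor did any pass on the lower side in epithelial/tumour-like (2.75%), fibroblast-like (2.99%) or neutrophil-like cells (7.37%). The 2 pairs with Il2rg rest on 4 and 18 UMIs in fibroblast-like cells, 3.105 (1.02–12.6), and on 16 and 18 UMIs in neutrophil-like cells, 2.06 (0.991–4.32). T markers in fibroblast-like cells summed to 1.65 and 37.4 CPM, and their part in the Il2rg value was not tested. With clusters weighted as in control, the neutrophil-like ratios were 1.42 for Il15, 1.65 for Il2rg and 0.695 for Il4ra. As a median log2 ratio, with 1 UMI added to each count, the members measured stood at -0.27 in T-like cells (8 genes, against -0.08 over all genes) and at 0.29 in epithelial/tumour-like cells (9 genes, against -0.06). The medians were 0.32 in fibroblast-like cells (5 genes, against 0.07), 0.34 in monocyte/macrophage-like cells (6 genes, against -0.03) and 1.03 in neutrophil-like cells (3 genes, against -0.05).

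**Figure D5:**
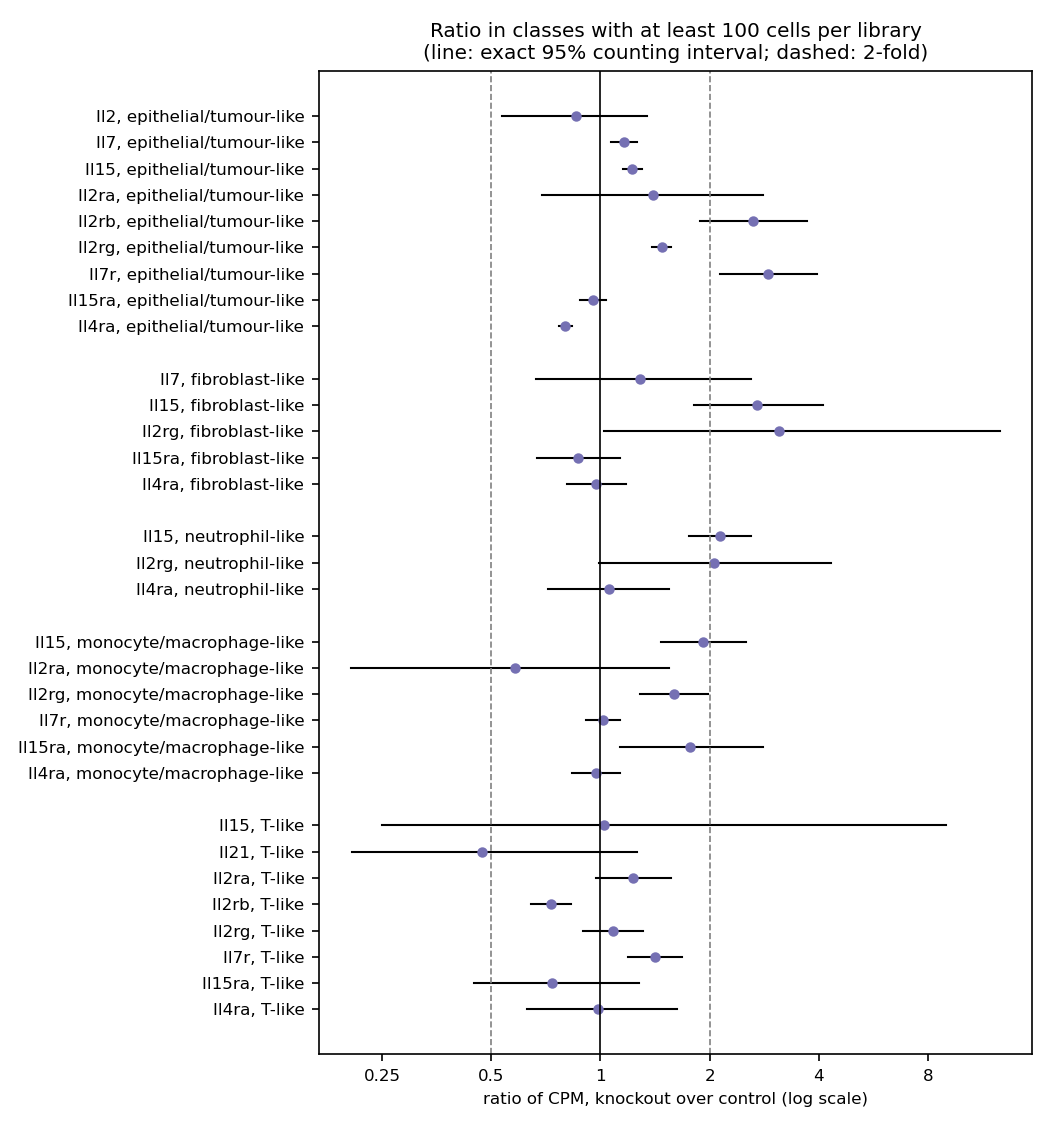
Ratio of knockout over control CPM (horizontal, log axis) for the 31 pairs of a member and a class with at least 20 UMIs (vertical); points are ratios, lines exact 95% counting intervals, the dashed lines mark 2-fold. Il15 lies right of 1 in epithelial/tumour-like, fibroblast-like, neutrophil-like and monocyte/macrophage-like cells, and Il2rb lies left of 1 in T-like but right of it in epithelial/tumour-like cells.

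Over whole libraries, T-like cells held 0.395% of control and 5.29% of knockout UMIs. The share of all genes past 2-fold was not computed at this level, so the members' library ratios stand without that background. Il2ra was 11.6 times, Il2rb 8.50 times, Il7r 4.91 times and Il2rg 2.32 times as high in the knockout library, and Il21, from 7 and 34 UMIs, 6.34 times (2.77–16.9). With the control levels of each class kept and only the classes' shares of UMIs changed to those of knockout, the factors were 12.7 for Il2ra, 10.46 for Il2rb, 3.80 for Il7r and 1.78 for Il2rg. With only the levels changed they were 1.23, 1.13, 1.30 and 1.46. The factors with only shares changed use the control levels of B-like cells, a class of 8 control cells. For Il2ra that level was 227 CPM from 3 UMIs, against 9.03 CPM in 448 knockout cells, so the factor of 12.7 rests partly on these 3 UMIs. Il21 stood at 13.4 with only shares and 0.473 with only levels changed. For Il15 the library ratio of 1.28 became 1.32 with only levels and 0.972 with only shares changed. Il4ra behaved likewise, with 0.813 for the library, 0.804 for levels and 0.977 for shares.

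The rest of the pathway was read from a list of 22 genes for the other ligands, receptor chains, kinases, Stat factors, feedback inhibitors and targets. In T-like cells 18 had at least 20 UMIs, of which 1 was at least 2-fold higher, the feedback inhibitor Socs3 at 12.02 and 27.9 CPM, a ratio of 2.32 (1.16–5.46), and 3 were at least 2-fold lower. Among these 3, the type 2 cytokine genes Il4 and Il13 had 38 and 21 control UMIs in T-like cells, all from 1 cell, and the receptor gene Il9r had 5 control and 25 knockout UMIs. The kinase gene Jak1 held 389 and 436 CPM and Jak3, which binds the common chain, 55.6 and 43.8 CPM, with ratios of 1.12 (0.987–1.28) and 0.789 (0.559–1.14). Stat5b stood at 179 and 209 CPM and Stat3 at 366 and 268 CPM, with ratios of 1.17 (0.968–1.42) and 0.732 (0.640–0.840). Of the genes that these cytokines induce, Cish stood at 63.1 and 57.0 CPM, a ratio of 0.903 (0.656–1.27), the survival gene Bcl2 at 431 and 496 CPM, 1.15 (1.02–1.30), and the kinase gene Pim1 at 128 and 207 CPM, 1.62 (1.30–2.04). The list's median log2 ratio in T-like cells was -0.08, equal to that of all genes.

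In neutrophil-like cells 10 of 12 measured pathway genes were higher in knockout, with a median log2 ratio of 0.53 against -0.05 over all genes, and 2 of the 12 passed 2-fold, Socs1 and Bcl2, where 7.34% of all genes did. Socs3 stood at 299 and 580 CPM, a ratio of 1.94 (1.63–2.31), and Mcl1, a survival gene of neutrophils, at 1039 and 1752 CPM, 1.69 (1.53–1.86). Inside the Cxcl2, Acod1 and Il1b cluster the same genes were closer, with Socs3 at 688 CPM (587–803) and 794 CPM (695–903) and Mcl1 at 1913 CPM (1741–2098) and 2251 CPM (2082–2430). The 2 called genes were also close there, Socs1 at 122 CPM (82.0–176) and 137 CPM (97.8–186) and Bcl2 at 21.1 CPM (6.86–49.3) and 20.5 CPM (7.53–44.7). Cish was at 148 CPM (103–206) and 92.4 CPM (60.9–134), and Pim1 there was at 2661 CPM (2457–2877) and 2350 CPM (2178–2533), lower in knockout, while the class as a whole was higher, 1143 and 1713 CPM. In epithelial/tumour-like cells 1 of 18 pathway genes passed 2-fold, the receptor gene Il21r at 0.237 and 0.532 CPM. The small cluster with leukocyte markers held 23 of the 36 control and 9 of the 55 knockout Il21r UMIs of that class. T-like cells held Il21r at 131 and 111 CPM, and the part of leukocyte transcripts in the tumour-like values was not tested. Cish was at 12.9 and 8.41 CPM in epithelial/tumour-like cells, a ratio of 0.652 (0.601–0.706). Of 16 pathway genes measured in fibroblast-like cells, 2 were at least 2-fold higher, Jak3 and Bcl2, and 1 lower, Cish, while none of 16 passed in monocyte/macrophage-like cells.

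The genes most like each member in their levels over 13 classes were searched among 12834 genes, with both libraries summed and Pearson's r of log2(CPM + 1) as the measure. Nearest to Il2rb were Prf1 (0.997), Ctsw (0.967) and Ifng (0.960), and nearest to Il7r were Fyb (0.955) and Rgs1 (0.928). Il15 was followed by Ptafr (0.899), Il7 by Triobp (0.924), Il15ra by Zfc3h1 (0.935), Il2ra by Kdm2b (0.920), Il2rg by Gm26749 (0.930) and Il4ra by Ptprj (0.861). The 13 points share the 2 libraries and differ in depth, so these values describe the profiles only. Il2 and Il21 had too few UMIs to be compared in this way.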

How the data were processed

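Tumour cells of 1 control and 1 knockout library were measured by 10x Genomics 3′ single-cell RNA-seq. The deposited matrices hold raw UMI counts per gene and barcode. Per the file headers Cell Ranger 8.0.0 wrote them, while the submitters' processing notes name Cell Ranger 3.1.3 and mm10. They held 173934025 UMIs over 13766 control barcodes and 137527647 over 12251 knockout barcodes. A cell passed with 500 or more genes and no more than 15% of its UMIs mitochondrial, and Scrublet doublets (expected rate 0.08; 148 and 341) were removed. Counts were normalised to 10000 per cell, and 2000 variable genes, without the members and the 22 other pathway genes, were scaled to at most 10 and reduced to 30 components. Leiden clustering (resolution 1, 15 neighbours, seed 0, 2 iterations) was run, and run again on leukocytes, with scanpy 1.11.5 and leidenalg 0.10.2. Clusters were named from 22 marker lists, with the scoring set after the clusters were seen, and 1 cluster of 8 and 95 cells stayed unnamed.

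Levels are UMIs summed over a class per 1000000, with exact Poisson intervals. Ratios have exact conditional and shares exact Clopper-Pearson intervals, all at 95%. UMIs were counted per molecule, so the intervals cover counting error only. Log2 ratios use a pseudocount of 1 UMI. Called means at least 2-fold with at least 20 UMIs in classes of at least 100 cells per library. For likeness, members needed 200 UMIs, genes 500 and classes 30 cells. A fold against 0 uses a floor of 3 counts. The interval calculation was tested on counts simulated as Poisson, which is the assumption behind the intervals. That test cannot show how the intervals hold where a gene's UMIs bunch in few cells. Gene positions were matched by identifier to GENCODE M21 on GRCm38. The named genes are the members, the 22 listed pathway genes and the nearest 3 genes per member. Members and lists were chosen with earlier results of these data known. Alternatives changed the cell filter, doublets, resolution, clustering genes, class naming, averaging, pseudocount, UMI minimum and thinning.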

Additional observations from a re-analysis of the deposited data

Results flagged for a closer look

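Il2rb differed between libraries in opposite directions in different cell classes. In epithelial/tumour-like cells its ratio of knockout over control was 2.63 (1.89 to 3.71), and in T-like cells it was 0.730 (0.644 to 0.830). The difference between these ratios was not tested, since each genotype had 1 library. The tumour-like level was under 1 CPM in both libraries.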

How the results depend on the processing

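Over 81 recalculated ratios, 11 moved outside their counting interval without crossing 1, and 2 crossed 1. Il15ra in monocyte/macrophage-like cells, given below, crossed 1 and also left its interval. The other was Il7 in fibroblast-like cells, whose interval holds 1 and which ranged from 0.977 with doublets kept to 1.50. With clusters weighted as in control, a choice made after seeing the data, Il15ra in monocyte/macrophage-like cells turned to 0.977, Il7r and Il2rb in T-like cells became 1.11 and 0.859, Il15 in neutrophil-like cells 1.42 and Il4ra in epithelial/tumour-like cells 0.846. Keeping doublets gave 0.835 for Il2rb in T-like, 0.847 for Il4ra and 1.71 for Il2rg in epithelial/tumour-like cells. Naming each cell from its own markers gave 0.837 for Il4ra and 1.58 for Il2rg there, and Il2rg was 1.61 at resolution 0.5 and 1.57 with the members among the clustering genes. The epithelial/tumour-like class, of 9551 control and 6121 knockout cells, was smaller in these settings. It had 8407 and 4621 cells with doublets kept and 8005 and 4758 with own-marker naming. At resolution 0.5 it had 7628 and 3926, and with the members among the clustering genes 7494 and 3737. The cause of the moved ratios was not tested. The 7 pairs past 2-fold became 2 under the strict filter, where neutrophil-like cells fell to 75 and 44 and were left out, 11 with doublets kept, 11 with at least 10 UMIs and 4 with at least 100. The shares of T-like cells with Il7r were 34.0% and 48.0% without thinning and 37.5% in knockout at 2000 UMIs. Il15 stayed above 1 in all alternatives, at 1.54 to 2.04 in monocyte/macrophage-like, 1.42 to 2.59 in neutrophil-like and 2.49 to 3.83 in fibroblast-like cells. The fibroblast-like class was not the same set of cells throughout. Its 401 control cells became 632 under the strict filter, 623 at resolution 2 and 681 with own-marker naming, against 701, 736 and 751 knockout cells. The Il15 ratios there were 3.41, 3.74 and 3.18, and the Il7 values in these settings share this limit. Which cells joined the class was not examined. No paired analysis was possible because each group had 1 library and the labels give no replicate numbers. Depth limits Il2 and Il21 most, with 61 and 48 UMIs of Il2 and 7 and 34 of Il21 in the libraries.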
